A study of Mus musculus with 8 samples.

Results

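The 39 genes described here make cholesterol and fatty acids, control that synthesis, or move sterols within and out of the cell. They were chosen by gene symbol as genes of sterol and fatty acid synthesis, uptake and efflux under the SREBP transcription factors, and all 39 were found among the 23361 gene symbols of the expression table. RNA was sequenced from induced regulatory T cells (iTreg) of wild-type Foxp3-RFP reporter mice, which mark Foxp3-expressing cells with a red fluorescent protein. Naive CD4+ T cells (CD44low CD62Lhigh) were cultured with anti-CD3/CD28 beads, 50 U/ml of IL-2 and 2 ng/ml of TGF-β for 3 days, and viable CD4+ Foxp3-RFP+ cells were sorted by surface Nrp-1. This gave 4 libraries of Nrp-1+ iTreg and 4 of Nrp-1- iTreg, so that culture, reporter and genotype are shared and the groups differ by the sort gate. A second label field gives day 5 as the time, and the study's methods give a B6 background and young adult mice. The libraries are labelled as biological replicates, but no source says whether they came from separate animals or cultures, so p-values measure the spread between these libraries only.

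Cells regulate these genes by a feedback on their own sterol content. SREBP precursors, encoded by Srebf1 and Srebf2, sit in the endoplasmic reticulum bound to the escort protein Scap, which carries them to the Golgi for cleavage when sterols are scarce, and the released fragment enters the nucleus and switches on synthesis genes. Insig proteins hold the complex back when sterols are plentiful, while oxysterols activate the LXR receptors, which switch on efflux pumps and the ubiquitin ligase Mylip. Activated T cells are known to turn on SREBP-dependent synthesis as they grow and divide, because new membrane is needed.

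SREBP acts on promoters together with the factor NF-Y, which reads CCAAT boxes, so the 250 bases upstream of the start of transcription are shown for 5 genes that mark the pattern described below. Hmgcs1, Insig1 and Fasn stand for sterol synthesis, feedback and fatty acid synthesis, Fads2 for the desaturases and Mylip for the genes that fell. Capitals mark matches on either strand to a sterol regulatory element (TCACNCCAC), a CCAAT box (CCAAT) or an E-box (CACGTG), and sequences are from RefSeq on GRCm38.p6, written 5′ to 3′ on the strand of the gene. The Fasn window precedes a start that lies inside the gene as RefSeq bounds it (chromosome 11, 120805958 to 120825166), and the other 4 windows end where their gene begins.
Hmgcs1 promoter, chr13:119690101-119690350 (+ strand): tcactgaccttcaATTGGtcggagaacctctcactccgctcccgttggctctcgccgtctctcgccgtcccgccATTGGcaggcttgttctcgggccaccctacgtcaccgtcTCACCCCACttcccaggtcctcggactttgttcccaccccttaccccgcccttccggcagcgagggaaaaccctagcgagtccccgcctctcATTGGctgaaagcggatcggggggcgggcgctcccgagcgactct
Insig1 promoter, chr5:28071162-28071411 (+ strand): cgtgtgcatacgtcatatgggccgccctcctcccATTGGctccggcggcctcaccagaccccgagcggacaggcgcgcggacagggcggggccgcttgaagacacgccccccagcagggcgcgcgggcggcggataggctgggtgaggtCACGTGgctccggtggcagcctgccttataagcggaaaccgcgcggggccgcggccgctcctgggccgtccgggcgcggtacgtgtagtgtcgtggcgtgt
Fasn promoter, chr11:120824548-120824797 (- strand): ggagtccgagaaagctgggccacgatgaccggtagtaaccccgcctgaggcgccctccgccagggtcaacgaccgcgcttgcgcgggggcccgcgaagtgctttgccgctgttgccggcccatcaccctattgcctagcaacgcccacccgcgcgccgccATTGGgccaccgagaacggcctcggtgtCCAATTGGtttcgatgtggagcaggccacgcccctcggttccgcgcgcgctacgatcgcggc
Fads2 promoter, chr19:10101504-10101753 (- strand): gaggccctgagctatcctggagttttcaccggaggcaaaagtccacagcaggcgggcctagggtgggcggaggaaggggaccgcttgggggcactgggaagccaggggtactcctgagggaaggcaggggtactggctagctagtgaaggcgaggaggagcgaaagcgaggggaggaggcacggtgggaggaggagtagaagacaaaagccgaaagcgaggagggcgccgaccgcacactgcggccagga
Mylip promoter, chr13:45389492-45389741 (+ strand): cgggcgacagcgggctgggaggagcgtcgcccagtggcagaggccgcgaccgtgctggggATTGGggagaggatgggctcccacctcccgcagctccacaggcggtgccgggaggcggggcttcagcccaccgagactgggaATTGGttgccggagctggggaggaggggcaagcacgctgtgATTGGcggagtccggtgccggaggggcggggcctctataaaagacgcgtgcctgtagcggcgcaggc

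The Hmgcs1 window held the sterol regulatory element, starting 137 bases before the start of transcription, between CCAAT boxes at 176 and 45 bases, and another CCAAT box at 237 bases. The Insig1 window held a CCAAT box at 216 bases and an E-box at 101 bases, and the Fasn window held 3 CCAAT boxes, of which those at 62 and 59 bases overlap on opposite strands. The Mylip window also held 3 CCAAT boxes, and the Fads2 window held none of the 3 motifs. Promoter windows, which extend from 250 bases before to 50 bases after the start, were found for 31 of the 39 genes. A CCAAT box was found in 23 of the 31 (74.2%), against 41.1% of all 27025 genes with a window. An E-box was found in 7 (22.6%, against 8.09% of all genes) and the sterol regulatory element in 1 (3.23%, against 1.44%). Only exact matches to the letters given above were counted, so sites that differ from them are missing from these counts. A CCAAT box was held by 9 of the 12 genes with a window that were higher in Nrp-1+ iTreg and by 14 of the 19 others. No window was matched for Abcg1, which was not called. None was matched either for Fdps, Fdft1, Sqle, Stard4, Scd1, Scd2 and Fads1, all higher in Nrp-1+ iTreg. The genes missing from the comparison of CCAAT boxes were thus mostly higher ones.

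Expression was deposited as FPKM, a fragment number scaled to transcript length and to the mapped fragments of the library. Log2(FPKM + 1) was compared with limma for the 10467 symbols averaging 1 FPKM or more, which include all 39 genes. A gene is called higher or lower at a Benjamini-Hochberg adjusted p under 0.05 over all tested genes. Fold changes on this scale understate the change of low genes, and percentages given below are changes of the group mean FPKM. The sort was visible in Nrp1 itself (21.5 ± 0.709 FPKM against 4.95 ± 0.262 FPKM, SD, n = 4), and Foxp3 was at 115.8 against 108.8 FPKM. Of 5 regulatory T cell markers, these 2 included, 4 were higher in Nrp-1+ iTreg and 1 was lower, and of 3 T cell markers 1 was lower and 2 passed in neither direction. Relative sequencing depth, read from the steps of low FPKM values, ranged from 0.810 to 1.24 of that of replicate 1 of Nrp-1+ iTreg. Of 21 markers of CD8 T, B, myeloid, NK, erythroid and platelet cells found in the table, 18 had a mean FPKM under 1, including the defining Cd8a, Ms4a1, Csf1r and Cd14. The other 3 differed between the subsets with no overlap, with means of 7.86 against 10.0 FPKM for Cd8b1, 6.70 against 5.56 FPKM for Itgam and 6.10 against 2.52 FPKM for Hba-a1, and their part in the results below was not tested. Summed over each marker list, FPKM ranged from 7.10 to 8.78 against 9.33 to 11.3 for 2 CD8 T cell markers, from 6.72 to 7.22 against 5.41 to 6.23 for 6 myeloid markers and from 5.50 to 7.56 against 2.01 to 3.28 for 3 erythroid markers, with the Nrp-1+ subset given first. The sums for B, NK and platelet cell markers overlapped, and Ms4a1 and Pf4 were listed at 0 in every library.

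Of the 39 genes, 19 were higher in Nrp-1+ iTreg (48.7%, against 20.9% of all genes tested) and 2 were lower (5.13%, against 20.0% of all genes tested). Either way, 40.9% of all genes tested were called. The remaining 18 genes passed in neither direction. With values corrected for GC and length, 17 of the 39 genes were higher, against 19.1% of all genes in that fit, and 3 were lower, against 29.7%, while the share of higher genes among all called genes moved from 51.1% to 39.1%. In all 21 genes that passed, the 4 Nrp-1+ iTreg libraries lay entirely above or entirely below the 4 Nrp-1- iTreg libraries, which was the case upwards for 20.2% and downwards for 19.3% of all genes tested. The median log2 fold change was 0.11 over the 39 genes and -0.02 over all genes tested. The changes were modest, with none reaching 2-fold and 10 genes changing by more than 20%. In bulk RNA a larger share of cells that express a gene and more RNA per cell cannot be told apart. Cell cycle genes were listed because earlier results of these data showed them moving with the subsets, so their count is not a test. Of the 19 listed, 19 were higher in Nrp-1+ iTreg, with a median log2 fold change of 0.90. Their part in the changes of lipid genes was not tested.

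**Figure D1:**
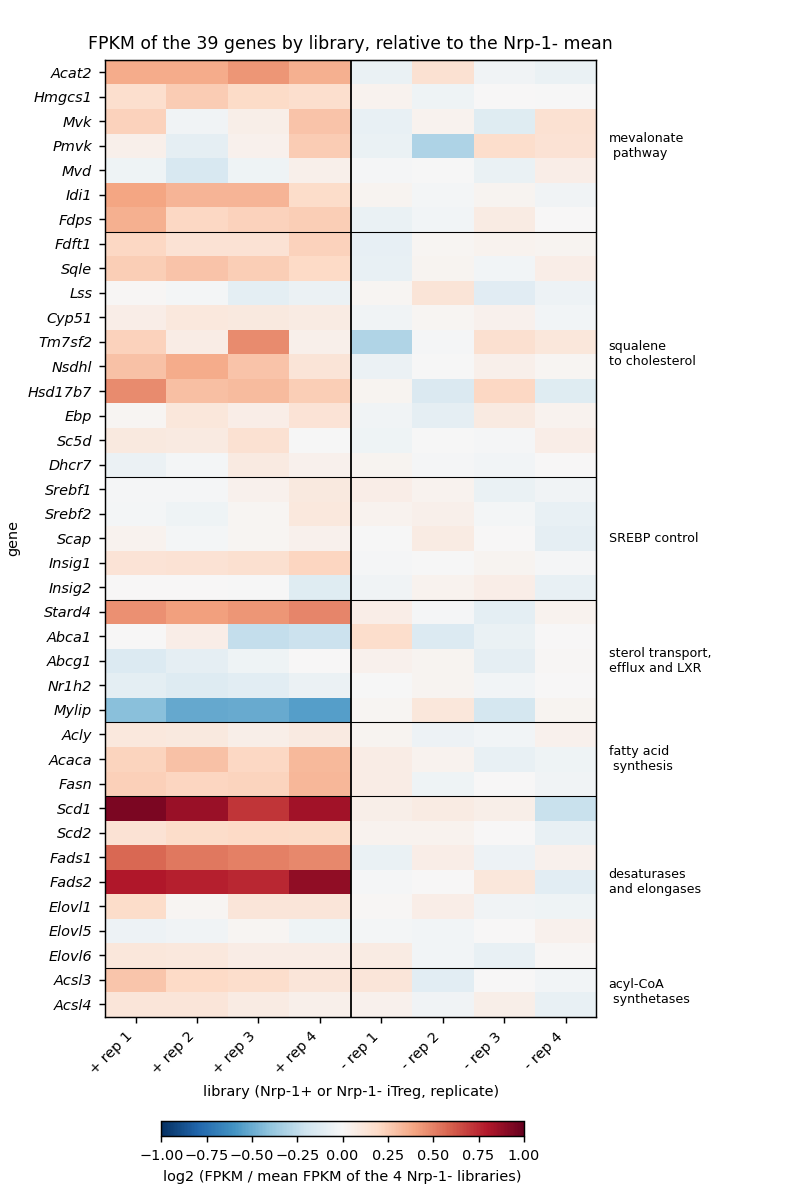
Each row is a gene and each column a library, 4 Nrp-1+ iTreg on the left and 4 Nrp-1- iTreg on the right. Colour gives log2 of FPKM over the mean of the Nrp-1- libraries, red for higher and blue for lower. Scd1 and Fads2 are the darkest red rows in all 4 Nrp-1+ libraries, and Mylip is the only row that is clearly blue across them.

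The genes covered a wide range of levels on the length-corrected FPKM scale. Means over the 8 libraries ran from 1.07 FPKM for Abca1 to 144.2 FPKM for Scd2, and 36 genes had a mean of at least 5 FPKM. After Scd2 came Fdps (134.3 FPKM), Elovl5 (119.7 FPKM), Srebf2 (94.7 FPKM) and Acly (78.1 FPKM). The lowest genes next to Abca1 were Hsd17b7 (3.03 FPKM) and Tm7sf2 (4.25 FPKM). Replicates lay close together, with a median coefficient of variation over the 39 genes of 3.91% in Nrp-1+ iTreg and 4.37% in Nrp-1- iTreg. The widest spread was that of Pmvk in Nrp-1- iTreg (15.2%) and Tm7sf2 in Nrp-1+ iTreg (14.0%).

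Among the 5 regulators, 1 was called, the feedback gene Insig1, which is a share of higher genes (20.0%) close to the 20.9% of all genes tested. Values are given for replicates 1 to 4 in order, here and below. Insig1, whose product retains the Scap and SREBP complex and which is itself an SREBP target, was at 47.5, 47.6, 48.2 and 50.1 FPKM in the Nrp-1+ subset and at 42.9, 43.0, 44.0 and 42.7 FPKM in the Nrp-1- subset. The groups did not overlap, and the increase was 12.0% (log2 fold change 0.16 ± 0.02, SE, with an adjusted p = 9.02e-04 by limma). Its relative Insig2, which is not driven by SREBP in the same way, was at 9.47, 9.48, 9.40 and 8.69 FPKM against 9.24, 9.70, 9.88 and 8.97 FPKM (adjusted p = 0.638 by limma, 95% confidence interval of the log2 fold change -0.12 to 0.07). Insig1 stood at 5.23 ± 0.359 times the FPKM of Insig2 in Nrp-1+ iTreg and at 4.57 ± 0.159 times in Nrp-1- iTreg (SD, n = 4).

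The transcripts of the SREBP factors and of their escort overlapped between the subsets. Srebf2, which encodes the factor that mainly drives sterol genes, was at 93.1, 91.3, 95.2 and 101.2 FPKM in the Nrp-1+ subset and at 96.4, 97.6, 93.0 and 89.6 FPKM in the Nrp-1- subset. Srebf1, whose products mainly drive fatty acid genes, was at 40.5, 40.4, 41.9 and 43.7 FPKM against 42.6, 41.8, 38.9 and 39.7 FPKM. Scap was at 29.6, 28.6, 29.3 and 29.9 FPKM against 28.8, 30.7, 29.1 and 27.2 FPKM. The ranges of the subsets overlapped in each of these 3 genes. The 95% confidence interval of the log2 fold change by limma was -0.07 to 0.11 for Srebf2, -0.06 to 0.12 for Srebf1 and -0.06 to 0.10 for Scap. FPKM do not report the amount of cleaved, active protein. Srebf2 was the more abundant of the pair in every library, at 2.26 to 2.39 times the FPKM of Srebf1.

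**Figure D2:**
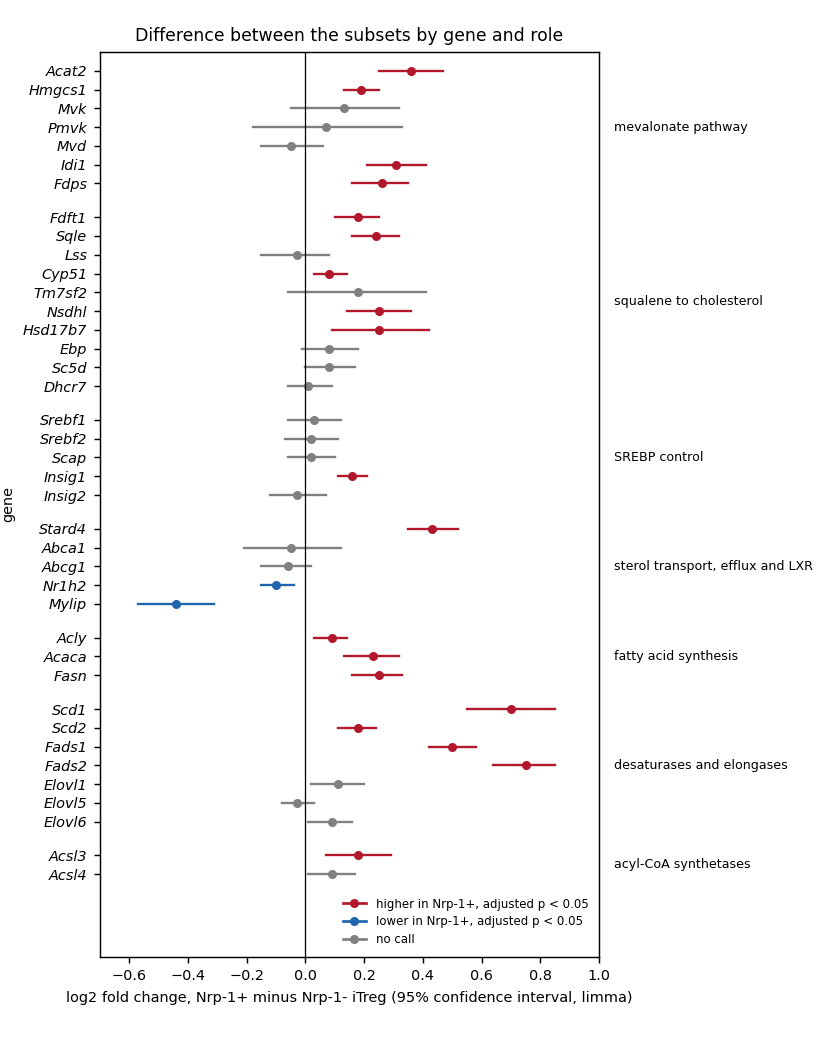
Points are log2 fold changes of Nrp-1+ against Nrp-1- iTreg on log2(FPKM + 1), and bars are 95% confidence intervals by limma, grouped by the role of the gene. The 3 fatty acid synthesis genes and 4 desaturases lie to the right of 0, 4 of the 5 SREBP control genes cover 0, and Mylip lies furthest to the left at -0.44.

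Sterol synthesis runs from acetyl-CoA through mevalonate and farnesyl diphosphate to squalene, which is closed into lanosterol and trimmed to cholesterol. Of its 17 enzymes among the 39 genes, 9 were higher in Nrp-1+ iTreg (52.9%, against 20.9% of all genes tested) with a median log2 fold change of 0.18. In the other direction limma called 0 of the 17 (20.0% of all genes tested). It also called 0 at an unadjusted p under 0.05, where the share of all genes was not counted. The exact Mann-Whitney test, unadjusted, called 0 lower, against 19.3% of all genes tested. Summed over the 17 enzymes, FPKM ranged from 580.4 to 597.4 across the Nrp-1+ subset and from 507.8 to 532.1 across the Nrp-1- subset.

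In the mevalonate part, 4 of 7 enzymes rose (57.1%, against 20.9% of all genes tested), namely Acat2, Hmgcs1, Idi1 and Fdps. Acat2, a cytosolic thiolase that joins acetyl-CoA units, was at 15.1, 15.1, 15.9 and 15 FPKM in the Nrp-1+ subset and at 11.2, 13.0, 11.4 and 11.2 FPKM in the Nrp-1- subset. Its increase of 30.6% (log2 fold change 0.36, adjusted p = 5.61e-04 by limma) was the largest of the sterol enzymes, but the neighbouring Acat3 is a near-identical copy and the division of reads between them is uncertain. Hmgcs1, which makes HMG-CoA, was at 58.4, 61.8, 59.2 and 58.4 FPKM against 53.3, 50.5, 52.1 and 51.9 FPKM, an increase of 14.4% (log2 fold change 0.19, adjusted p = 7.16e-04 by limma). The lowest Nrp-1+ iTreg library was thus above the highest Nrp-1- iTreg library in both genes.

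Idi1, which interconverts the basic isoprenoid units, was at 52.6, 50.7, 50.8 and 45.6 FPKM in the Nrp-1+ subset and at 40.8, 39.5, 40.8 and 39.1 FPKM in the Nrp-1- subset (24.7% higher, adjusted p = 7.41e-04 by limma). Fdps, which makes farnesyl diphosphate and was the most abundant sterol enzyme, was at 156.1, 141.3, 143.3 and 144.8 FPKM against 116.5, 120.1, 129.6 and 122.9 FPKM (19.7% higher, adjusted p = 0.00168 by limma). In GENCODE M21, 26.7% of the exonic bases of Fdps are shared with the gene model Gm43738 on the same strand. For Hmgcs1 and Idi1, 12.1% and 9.22% are shared with gene models on the opposite strand. The increases of the 4 genes spanned 14.4% to 30.6%. The kinases Mvk and Pmvk and the decarboxylase Mvd had overlapping libraries, with changes of 10.6%, 4.80% and -3.22% (adjusted p = 0.207, 0.638 and 0.436 by limma).

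From squalene to cholesterol, 5 of 10 enzymes rose (50.0%, against 20.9% of all genes tested). The count was 3 without replicate 4 of Nrp-1- iTreg (18.9% of all genes in that fit) and 3 with quantile normalization (16.9%), nearer to the share over all genes. Fdft1, which makes squalene, was at 34.6 ± 0.995 FPKM in the Nrp-1+ subset and 30.5 ± 1.16 FPKM in the Nrp-1- subset (SD, n = 4; 13.4% higher, adjusted p = 0.00356 by limma), and 18.3% of its exonic bases are shared with Ctsb on the opposite strand. Sqle, the oxidase that commits squalene to sterols, was at 33.7, 34.7, 33.8 and 32.6 FPKM against 27.0, 29.0, 27.9 and 29.8 FPKM. Its lowest Nrp-1+ iTreg library was 32.6 FPKM and its highest Nrp-1- iTreg library 29.8 FPKM, and the increase was 18.6% (log2 fold change 0.24, adjusted p = 9.27e-04 by limma).

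Nsdhl, a dehydrogenase of the removal of methyl groups from lanosterol, was at 16.4, 17.3, 16.3 and 14.6 FPKM in the Nrp-1+ subset and at 12.8, 13.3, 13.8 and 13.5 FPKM in the Nrp-1- subset (20.8% higher, adjusted p = 0.00359 by limma). Hsd17b7, the reductase that works with it, was at 3.71, 3.30, 3.34 and 3.18 FPKM against 2.73, 2.42, 3.10 and 2.47 FPKM (26.1% higher, adjusted p = 0.0211 by limma). Its ranges came close together, and the call was lost without replicate 1 of Nrp-1+ iTreg (adjusted p = 0.0540) and without replicate 2 or 4 of Nrp-1- iTreg (0.0534 and 0.0551), and with quantile normalization (0.0632). Cyp51, which takes the first methyl group off lanosterol, was at 45.8 ± 0.505 FPKM against 43.2 ± 1.09 FPKM (6.13% higher, adjusted p = 0.0194 by limma), and it did not pass after correction for GC content and length (adjusted p = 0.108), with quantile normalization (0.128) or in 3 of the 8 fits that left out a library (without replicate 2 or 3 of Nrp-1+ iTreg or replicate 4 of Nrp-1- iTreg, adjusted p = 0.0524, 0.0501 and 0.0526). Lss, Tm7sf2, Ebp, Sc5d and Dhcr7, which close the rings and carry out later steps, overlapped between the subsets. Changes ran from -2.65% for Lss to 16.4% for Tm7sf2, with adjusted p by limma from 0.103 to 0.795. In Tm7sf2, 12.1% of the exonic bases are shared with Vps51 on the same strand, which had a mean of 18.1 FPKM.

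Of 5 genes of sterol transport, efflux and LXR, Stard4 rose (20.0%, against 20.9% of all genes tested) and Mylip and Nr1h2 fell (40.0%, against 20.0% of all genes tested). Stard4, which shuttles cholesterol between membranes and is induced by SREBP, was at 27.1, 26.2, 26.8 and 27.7 FPKM in the Nrp-1+ subset and at 20.7, 19.6, 18.4 and 20.2 FPKM in the Nrp-1- subset. The increase was 36.6% (log2 fold change 0.43 ± 0.04, SE, with an adjusted p = 5.17e-05 by limma). Mylip, a ubiquitin ligase that lowers sterol uptake and is switched on by LXR, was at 7.12, 6.68, 6.70 and 6.49 FPKM against 9.67, 10.3, 8.42 and 9.69 FPKM. All Nrp-1+ iTreg libraries were below all Nrp-1- iTreg libraries, with a change of -29.1% (log2 fold change -0.44 ± 0.06, SE, with an adjusted p = 4.98e-04 by limma), which placed Mylip at the 2.10 percentile of all genes tested.

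Nr1h2, which encodes the LXR form present in most cells, was at 40.8 ± 0.853 FPKM in the Nrp-1+ subset and 43.6 ± 0.673 FPKM in the Nrp-1- subset (SD, n = 4), a change of -6.54% (adjusted p = 0.00993 by limma). The cholesterol efflux pumps Abca1 and Abcg1, which LXR also induces, overlapped between the subsets. Abcg1 was at 23.9 ± 0.976 FPKM against 25.0 ± 0.998 FPKM (adjusted p = 0.220 by limma) and Abca1, near the limit of the test, at 1.04 ± 0.110 FPKM against 1.11 ± 0.103 FPKM (adjusted p = 0.649).

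The 3 largest increases among the 39 genes were in fatty acid genes. Of 12 such genes, 8 were higher in Nrp-1+ iTreg by limma (66.7%, against 20.9% of all genes tested), with a median log2 fold change of 0.18, and 0 were lower (20.0% of all genes tested). At an unadjusted p under 0.05, where the share of all genes was not counted, limma gave 11 higher and 0 lower. The exact Mann-Whitney test, unadjusted, gave 8 and 0, against 20.2% and 19.3% of all genes tested. The 3 enzymes that build palmitate from citrate all rose, against 20.9% of all genes tested. Fasn, the fatty acid synthase, was at 34.0, 33.5, 33.6 and 36.3 FPKM in the Nrp-1+ subset and at 30.3, 28.0, 28.8 and 28.1 FPKM in the Nrp-1- subset (19.3% higher, log2 fold change 0.25, adjusted p = 9.26e-04 by limma). Acaca, the carboxylase that makes malonyl-CoA, was at 7.04, 7.38, 6.97 and 7.55 FPKM against 6.36, 6.17, 5.72 and 5.85 FPKM (20.1% higher, adjusted p = 0.00289 by limma). Neither gene overlapped between the subsets, and Fasn had the higher level. Acly, which releases acetyl-CoA from citrate, was at 80.5 ± 1.07 FPKM against 75.7 ± 2.24 FPKM (6.24% higher, adjusted p = 0.0242 by limma). The Acly call was lost with the GC and length correction (adjusted p = 0.0703 by limma), with quantile normalization (0.111) and with a replicate block (0.0527). With block and correction together the adjusted p was 0.125. The call was also lost in 4 of the 8 fits that left out a library. These were without replicate 1 or 2 of Nrp-1+ iTreg (adjusted p = 0.0607 and 0.0598) or replicate 2 or 3 of Nrp-1- iTreg (0.0572 and 0.0642).

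All 4 desaturases, which put double bonds into fatty acids, rose, and with the elongases 4 of 7 genes did (57.1%, against 20.9% of all genes tested). Fads2, a desaturase that starts the conversion of dietary polyunsaturated fatty acids, was at 16.8, 16.5, 16.2 and 17.8 FPKM in the Nrp-1+ subset and at 9.54, 9.65, 10.4 and 8.93 FPKM in the Nrp-1- subset. The increase of 74.6% (log2 fold change 0.75 ± 0.05, SE, with an adjusted p = 7.87e-06 by limma) placed it at the 97.0 percentile of all genes tested. Fads1, the desaturase that follows it in the same pathway, was at 24.9, 24.1, 23.8 and 23.4 FPKM against 16.0, 17.5, 16.2 and 17.3 FPKM, an increase of 43.7% (log2 fold change 0.50 ± 0.04, SE, with an adjusted p = 1.47e-05 by limma). The 2 genes lie close together on chromosome 19 (Fads2 at 10062765 to 10101503 and Fads1 at 10182877 to 10196874, GRCm38.p6), and in both a wide gap separated the subsets.

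Scd1, a desaturase that makes oleate, was at 7.01, 6.63, 6.00 and 6.53 FPKM in the Nrp-1+ subset and at 3.80, 3.87, 3.79 and 3.13 FPKM in the Nrp-1- subset, an increase of 79.2% (log2 fold change 0.70 ± 0.07, SE, with an adjusted p = 8.07e-05 by limma). Its paralogue Scd2, which lies near it on chromosome 19 (Scd2 at 44293676 to 44306864 and Scd1 at 44394450 to 44407709), had the higher level, at 153.0 ± 2.57 FPKM against 135.3 ± 4.81 FPKM (13.1% higher, adjusted p = 0.00173 by limma). Scd2 stood at 21.3 to 25.9 times the FPKM of Scd1 in the Nrp-1+ subset and at 35.7 to 41.0 times in the Nrp-1- subset. The more abundant form thus rose by the smaller proportion, and because Scd1 and Scd2 are similar in sequence, some reads could have been assigned to the wrong one.

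The elongases, which lengthen fatty acids, did not pass the test, although each was called in some alternative fits by limma. Elovl5 was lower with the GC and length correction (adjusted p = 0.0317), Elovl1 was higher in 5 alternatives (adjusted p = 0.0173 to 0.0485) and Elovl6 was higher without replicate 1 of Nrp-1- iTreg (adjusted p = 0.0218). Elovl5, which extends polyunsaturated fatty acids between the Fads2 and Fads1 steps, was at 118.6 ± 2.59 FPKM in the Nrp-1+ subset and 120.7 ± 2.48 FPKM in the Nrp-1- subset (SD, n = 4; adjusted p = 0.421 by limma, 95% confidence interval of the log2 fold change -0.08 to 0.03). Elovl1 was at 43.4 ± 1.99 FPKM against 40.2 ± 1.40 FPKM and Elovl6 at 13.6 ± 0.208 FPKM against 12.8 ± 0.588 FPKM (adjusted p = 0.0527 and 0.0750 by limma). Among the acyl-CoA synthetases, which activate free fatty acids, Acsl3 was at 11.8, 11.2, 11.0 and 10.6 FPKM against 10.6, 9.05, 9.78 and 9.57 FPKM (14.4% higher, adjusted p = 0.0193 by limma). The ranges of Acsl3 came within rounding of each other, and the call was lost without replicate 1 of Nrp-1+ iTreg (adjusted p = 0.0505 by limma). Of its exonic bases, 5.60% are shared with Utp14b on the same strand. Acsl4 was at 24.2 ± 0.569 FPKM against 22.7 ± 0.983 FPKM (adjusted p = 0.0633).

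**Figure D3:**
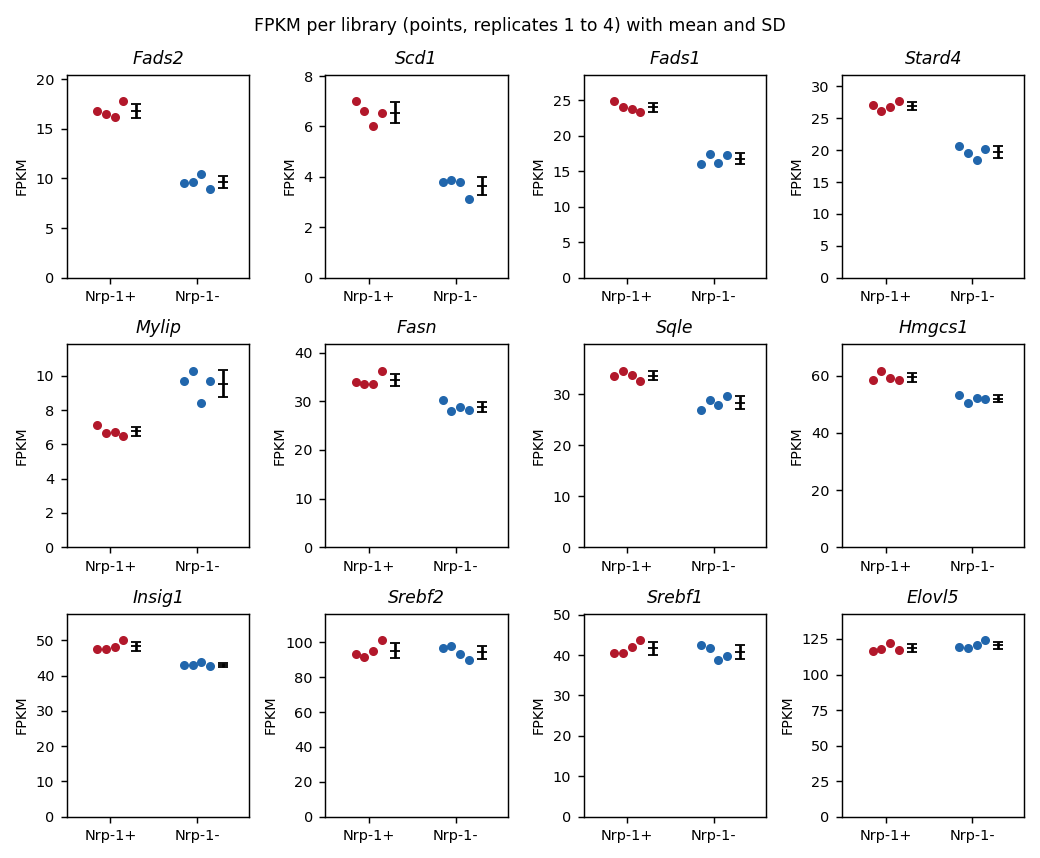
Points are FPKM of single libraries, red for Nrp-1+ and blue for Nrp-1- iTreg, and the bars beside them give the mean and SD of 4 libraries, with every axis starting at 0. Fads2, Scd1, Fads1 and Stard4 show a wide gap between the subsets, Fasn, Sqle, Hmgcs1 and Insig1 a narrow one, and Srebf2, Srebf1 and Elovl5 overlap.

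Of 25 listed genes of the same pathways outside the 39, 20 passed the filter, of which 7 were higher (35.0%, against 20.9% of all genes tested) and 4 lower (20.0%, the same share as over all genes tested) in Nrp-1+ iTreg, with a median log2 fold change of 0.09. The widest changes were those of Npc2, a lysosomal cholesterol carrier, which fell from 343.1 ± 14.0 FPKM in Nrp-1- iTreg to 266.3 ± 1.38 FPKM in Nrp-1+ iTreg (log2 fold change -0.36, adjusted p = 3.81e-05 by limma), and of Lbr, a nuclear membrane protein with sterol reductase activity, which was at 166.7 ± 2.66 FPKM in Nrp-1+ iTreg against 130.5 ± 2.17 FPKM (log2 fold change 0.35, adjusted p = 5.24e-06 by limma). Acsl5, an acyl-CoA synthetase, was higher (log2 fold change 0.32, adjusted p = 3.09e-05 by limma), and Acss2, which makes acetyl-CoA from acetate, was lower (-0.26, adjusted p = 0.00231). Other genes called included Soat1, which esterifies cholesterol, and Slc25a1, the mitochondrial citrate carrier (both higher), and Ggps1, which makes geranylgeranyl diphosphate, and Mbtps1, the protease that makes the first cut in SREBP (both lower).

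Of 19 genes of fatty acid oxidation, the opposing process, 4 were higher (21.1%) and 1 lower (5.26%) in Nrp-1+ iTreg, with a median log2 fold change of 0.01, against 20.9% and 20.0% of all genes tested. The genes with the widest changes were Etfb, an electron carrier (23.2%, adjusted p = 6.85e-05 by limma), Cpt1a, which commits long-chain fatty acids to mitochondria (20.3%, adjusted p = 5.75e-05), Acads, a dehydrogenase of short chains (-15.4%, adjusted p = 0.00111), and Decr1, a reductase needed for unsaturated fatty acids (19.3%, adjusted p = 0.00158). Etfdh was the other gene called. The count of lower genes in this list was 4 with the correction for GC content and length, where 29.7% of all genes were lower, and 2 without replicate 3 of either subset.

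**Figure D4:**
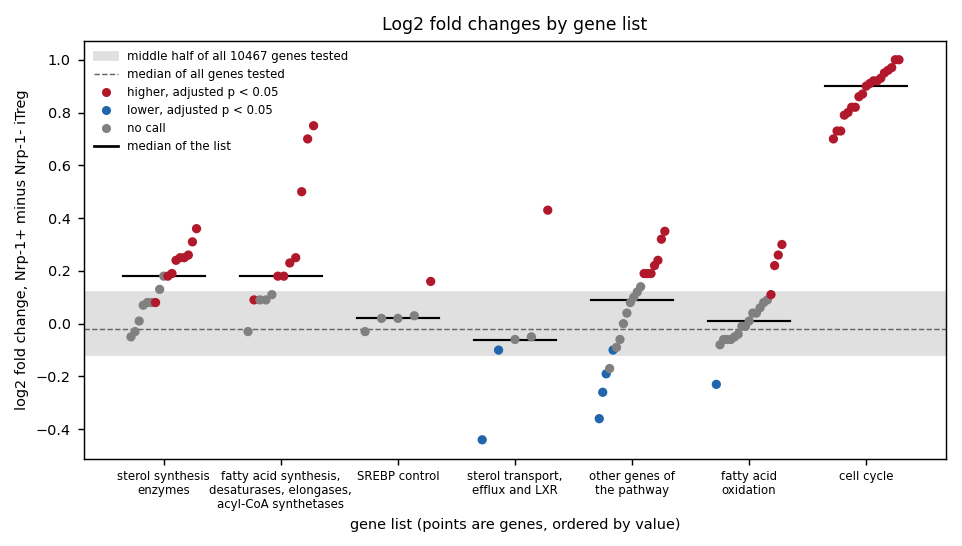
Points are log2 fold changes of single genes, Nrp-1+ against Nrp-1- iTreg, red or blue where the adjusted p by limma was under 0.05, with black lines at list medians and the grey band over the middle 50% of all 10467 genes tested. Sterol synthesis enzymes and fatty acid genes both have a median of 0.18, fatty acid oxidation genes lie around 0.01 and cell cycle genes around 0.90.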

How the data were processed

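RNA of the Nrp-1+ and Nrp-1- subsets of iTreg was sequenced (4 libraries each). FPKM in the deposited table came from the authors' work in the CLC Genomics Workbench, with Cufflinks for the FPKM step, and are given by gene symbol. The submitters' processing notes name GRCm38 (mm10). Aligner settings and annotation are not given in the sources used here, and the paper and the labels name different library kits, so strand use is open. Groups came from the sample descriptions.

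No further scaling was applied. After symbols averaging under 1 FPKM were dropped (10467 left), limma 3.58.1 was run on log2(FPKM + 1) (eBayes, intensity trend, two-sided, R 4.3.3). Benjamini-Hochberg adjustment was over all of them. The fit was also run on simulated data with independent noise in each gene and library, which cannot test for effects shared within a library. Exact tests used scipy 1.17.1. With 4 against 4 libraries no exact test goes below p = 0.0286. The smallest depth was 0.810 and the largest 1.24 of replicate 1 of Nrp-1+ iTreg, from genes whose FPKM stayed under 0.3, where 68.9% to 72.2% of ratios between libraries lay within 0.02 (log2) of a ratio of small whole numbers. Values in every library are given for the 5 SREBP control genes and the 15 other members with the largest log2 fold change among those called. For the lists of other pathway, oxidation and cell cycle genes, values are given for the 4 largest changes or as counts. The values of some listed genes are not reported here on their own. The members and lists were chosen with earlier results of these data known. Promoter windows and positions are from RefSeq on GRCm38.p6, and lengths and GC content from GENCODE M21 transcripts. Alternatives were other pseudocounts (0.1 and 0.5), filters (none, or a mean FPKM of 5), size factors, quantile normalization, a GC and length correction (natural splines with 5 degrees of freedom, 99.4% of genes), a replicate block, no trend, array weights, no short RNA genes, an exact Mann-Whitney test and each library left out.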

Additional observations from a re-analysis of the deposited data

Results flagged for a closer look

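In 5 of 78 groups of 4 libraries (39 genes in 2 subsets), a single library lay far from the other 3 by Dixon's test at the 95% level, where chance gives about 3.90. Acat2 had such a library in both subsets, at 15.9 FPKM in Nrp-1+ replicate 3, against at most 15.1 FPKM in the others, and at 13.0 FPKM in Nrp-1- replicate 2, against 11.2 to 11.4 FPKM. Fdft1 was at 28.8 FPKM in Nrp-1- replicate 1, against 30.9 to 31.3 FPKM. Insig2 was at 8.69 FPKM in Nrp-1+ replicate 4, against 9.40 to 9.48 FPKM. Scd1 was at 3.13 FPKM in Nrp-1- replicate 4, against 3.79 to 3.87 FPKM. The adjusted p by limma stayed at or below 0.00571 for Acat2, 0.0274 for Fdft1 and 0.00180 for Scd1 over the 20 alternative fits, which include those without these libraries.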

How the results depend on the processing

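Over the 20 alternative fits by limma, from 16 to 20 of the 39 genes were called higher and from 2 to 4 lower. Of all genes tested in those fits, 14.1% to 22.5% were higher and 11.7% to 29.7% lower. Leaving out each library in turn gave 16 to 20 higher (18.7% to 19.6% of all genes) and 2 lower (16.9% to 18.3%). The median log2 fold change of the 39 genes was then 0.10 to 0.14, against -0.02 to -0.01 over all genes. With the GC and length correction, with or without the replicate block, that median was 0.07, against -0.05 over all genes. With quantile normalization it was 0.08, against -0.03 over all genes. The lowest count without a library, 16, came without replicate 1 of Nrp-1+ iTreg. The count of lower genes moved to 4 (25.6% of all genes) with the replicate block and the GC and length correction together, which adds Mvd and Elovl5. With the GC and length correction 39.1% of all called genes were higher, against 51.1% without it, and the counts among the 39 genes were 17 higher (19.1% of all genes in that fit) and 3 lower (29.7%). With the replicate block they were 18 and 2 (18.4% and 16.0% of all genes), Acly being the gene that was lost (adjusted p = 0.0527 by limma). Same-numbered libraries did not deviate together (correlations from -0.107 to -0.0360), so the numbers were not treated as pairs. The exact Mann-Whitney test, unadjusted, called the 21 genes that limma called. With 4 against 4 libraries it passes only where the groups do not overlap. It thus repeats the count of such genes given above, upwards in 20.2% and downwards in 19.3% of all genes tested. Of these 21 genes, 17 were called in all 20 alternative fits, with an adjusted p of at most 0.0420, and Cyp51, Hsd17b7, Acly and Acsl3 were not. Of the 18 others, Sc5d, Elovl1, Elovl6 and Acsl4 were called higher in some and Mvd and Elovl5 lower. The cause of these losses and gains was not tested.

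In 15 cases, all among genes that were not called, the log2 fold change crossed 0. With quantile normalization it was -0.00327 for Dhcr7 and -9.65e-04 for Srebf1. With the GC and length correction, without and with the replicate block, it was -0.0179 for Dhcr7, -0.00657 for Srebf2 and -0.0108 for Scap. Leaving out each library in turn gave -0.0231 to 0.132 for Pmvk, -0.0645 to 0.00631 for Lss, -0.0118 to 0.0360 for Dhcr7, -0.0138 to 0.0351 for Srebf2, -0.00945 to 0.0467 for Scap and -0.0487 to 0.00106 for Insig2. Depth differed by less than 2-fold between libraries, and the lowest FPKM among the 39 genes were those of Abca1, Hsd17b7 and Tm7sf2.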
